A study of Sus scrofa with 3 samples.

Results

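miR-660 and miR-188 are precursors encoded as neighbors on chromosome X of the pig. All 4 of their listed miRNAs, the 5p and the 3p arm of each, were followed across a red, an intermediate and a white skeletal muscle. They were taken from the table of conserved miRNAs by the most common name, miR-660 or miR-188, among the precursors of other mammals that the table gives for an entry. This rule found 4 of 152 listed miRNAs, at 2 positions, and all 4 were among the 108 unique miRNAs that reached a sum of 3 reads and were tested. The muscles were peroneal longus (PL, red), psoas major (PMM, intermediate) and longissimus dorsi (LDM, white) of female Landrace pigs at 210 days of age. Each muscle had 1 library and thus no replicate, so the tests compare libraries, and the spread between animals was not measured. The RNA of PL was pooled from 3 pigs, and for PMM and LDM the methods state only that the pigs were the same. PL was sequenced for this study while the data of PMM and LDM came from an earlier one, so a difference of PL from both other muscles and a difference between the sequencing runs cannot be told apart. PMM against LDM is the comparison within the earlier data.

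A miRNA gene is transcribed as a hairpin that is cut to a short duplex, and either strand of it, the 5p or the 3p arm, can be loaded to repress mRNAs that pair with its seed, bases 2 to 8. Arms of 1 hairpin, and hairpins of 1 transcript, start from the same RNA, but the level of each mature miRNA is also set by its own processing and decay. In human, miR-188 and miR-660 lie with miR-532, miR-500, miR-362, miR-501 and miR-502 in an intron of CLCN5, the gene of an endosomal chloride and proton exchanger. In mouse, miR-188 is known as a regulator of the choice of bone marrow stromal cells between bone and fat. Of the 7 miRNAs of the human cluster, only these 2 were in the table. In the RefSeq annotation of the pig (Sscrofa11.1), MIR532, MIR500 and MIR362 follow each other between USP27X and CLCN5. They are not entries of this table, and the table of known porcine miRNAs was not analysed here.

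In the table, both positions are on the plus strand of Sscrofa10.2, miR-188 at chrX:48632378-48632485 and miR-660 at chrX:48640809-48640903. Their starts are 8431 nt apart, with no other listed entry between them. The mature sequences are given here to show the seed and the arm of each member. They are written 5′ to 3′ with T for U and with the seed in capitals.
miR-660-5p: tACCCATTgcatatcggagttg
miR-660-3p: aCCTCCTAtgtgcatggttta
miR-188-5p: cATCCCTTgcatggtggaggga
miR-188-3p: cCTCCCACgtgcagggtttgca

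As listed, the 4 seeds differ from each other, and 0 other unique miRNAs of the table share any of them. The 5p arms share bases in and after the seed. Set side by side from the first base, miR-660-5p and miR-188-5p match at 13 of 22 bases and share the run TTGCAT from base 7 in both. A shared run as long is found in 6.75% of the 5778 pairs of tested miRNAs, and 0.883% of them match at as many bases in their best ungapped alignment. Within the seed they differ by C3T and A6C (miR-660-5p base, position from the 5′ end, miR-188-5p base). The 3p arms match at 16 bases when shifted by 1, and 0.260% of all pairs match at as many bases. miR-188-5p and miR-188-3p are richer in G and C, with 59.1% and 63.6%, against 45.5% for miR-660-5p and 42.9% for miR-660-3p.

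The listed hairpins are shown to place the arms, with the stretches that align to the listed arms in capitals.
miR-660: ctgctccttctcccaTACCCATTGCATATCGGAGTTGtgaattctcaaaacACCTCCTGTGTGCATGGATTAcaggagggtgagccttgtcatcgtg
miR-188: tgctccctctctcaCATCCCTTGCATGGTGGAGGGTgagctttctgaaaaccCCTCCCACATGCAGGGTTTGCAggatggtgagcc

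The table gives a hairpin sequence of its own for each arm, and those shown are from the entries of miR-660-3p and miR-188-5p. The arms are separated by 14 nt in miR-660 and by 16 nt in miR-188. Listed arms and listed hairpins were not always identical (hairpin base first, then the position counted from the miRNA's 5′ end, then the base of the arm). miR-660-5p matched the hairpin of the 3p entry at every base and differed from that of its own entry by C20T. miR-660-3p differed by A18T from both hairpins and by G8A from that of its own entry as well. The G8A change falls on the last base of its seed, so its listed seed differs from that hairpin. miR-188-5p had T22A, at its last base, and miR-188-3p had A9G, each against both hairpins of the position. The levels are those of the listed sequences, and whether reads without these changes were counted with them is not given in the sources used here. Of the 152 listed miRNAs, 106 matched the hairpin of their own entry at every base, 42 were 1 base away and 4 were further away. All 4 members were thus among the 46 with a mismatch, and miR-660-3p was among the 4 with more than 1.

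Levels are given as RPM, reads per 1 M raw reads, with 9.17 M raw reads in PL, 18.46 M in PMM and 16.62 M in LDM. A level of 0 reads is given with the limit that 3 reads would set, which is 0.327 RPM for PL, 0.163 RPM for PMM and 0.181 RPM for LDM. All intervals are at 95% and cover counting error only, since reads are not independent molecules. As whole muscle was sequenced, fewer cells of a type and less RNA per cell cannot be told apart.

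miR-660-5p was by far the most abundant member and, with raw reads as total, was lower in LDM than in PL and PMM. PL had 213 reads of it (23.2 RPM, exact Poisson interval 20.2 to 26.6), PMM had 406 (21.99 RPM, 19.9 to 24.2) and LDM had 168 (10.1 RPM, 8.64 to 11.8). The intervals of PL and PMM overlap, while that of LDM lies below both. Among the conserved miRNAs alone, miR-660-5p ranked 3 of 105 detected unique miRNAs in PL, 5 of 114 in PMM and 7 of 108 in LDM. The known porcine miRNAs, which include the most abundant ones of the paper, were not ranked.

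The level of miR-660-5p in PMM was 2.18-fold that in LDM (exact binomial interval 1.81 to 2.62), with a Bonferroni-adjusted p of at most 3.9e-16 in the exact test of Fisher, the Audic-Claverie test and the chi-squared test. This difference was called, which needs an adjusted p under 0.001 in all 3 tests, as were 12.0% of the 108 tested miRNAs in either direction and 8.33% as higher in PMM. It stayed called under each of 4 other library totals, where its log2 fold lay between 0.63 and 0.89 against 1.12 with raw reads. In PL the level was 2.30-fold that in LDM (1.87 to 2.83, adjusted p at most 9.5e-14 in the exact and both other tests), a comparison in which 23.1% of miRNAs were called and 14.8% as higher in PL. Unlike the call of PMM over LDM, that of PL over LDM was lost under some of the other totals, as given below. Between PL and PMM miR-660-5p was not called, with a ratio of 1.06 (0.891 to 1.250). The background there was 21.3% called and 11.1% called higher in PL.

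miR-660-3p, the other arm of that hairpin, was near the limit of detection. PL had 0 reads of it, PMM had 6 (0.325 RPM, 0.119 to 0.707) and LDM had 2 (0.120 RPM, 0.0146 to 0.435). The 3 libraries could not be told apart at this depth. For 0 reads in PL the limit of 3 reads is 0.327 RPM, and the exact Poisson interval reaches 0.402 RPM. The ratio of PMM to LDM was 2.70 with an interval from 0.483 to 27.4.

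With raw reads as total, miR-188-5p had its highest level in PL. PL had 40 reads of it (4.36 RPM, 3.12 to 5.94), PMM had 32 (1.73 RPM, 1.19 to 2.45) and LDM had 13 (0.782 RPM, 0.416 to 1.34). The interval of PL lies above both others, which overlap each other. Its rank among the conserved miRNAs was 18 in PL, 31 in PMM and 34 in LDM.

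PL over LDM was called for miR-188-5p, with a 5.58-fold higher level (2.92 to 11.4, adjusted p at most 6.5e-07 in the exact and both other tests). PL over PMM was 2.52-fold (1.54 to 4.14, adjusted p up to 0.0142 over the exact and both other tests) and was not called at the 0.001 limit. PMM over LDM was 2.22-fold (1.13 to 4.60), close to the 2.18-fold of miR-660-5p, but with 45 reads in all it was not called (adjusted p up to 1 over the exact and both other tests).

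miR-188-3p was measured almost only in PL. PL had 21 reads of it (2.29 RPM, 1.42 to 3.50), PMM had 1 (0.0542 RPM, 0.00137 to 0.302) and LDM had 0. PL thus lies above both other libraries, although its library had the fewest raw reads. The ratio of PL to PMM was 42.3 with a wide interval of 6.80 to 1748 because of the single read (adjusted p at most 1.4e-07 in the exact and both other tests). The level in PL was 12.7-fold the limit that 3 reads would set for LDM. For 21 reads in PL against 0 in LDM, the exact interval of the ratio started at 9.44-fold (adjusted p at most 7.4e-08 in the exact and both other tests). Both differences were called, and PMM and LDM could not be told apart.

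**Figure D1:**
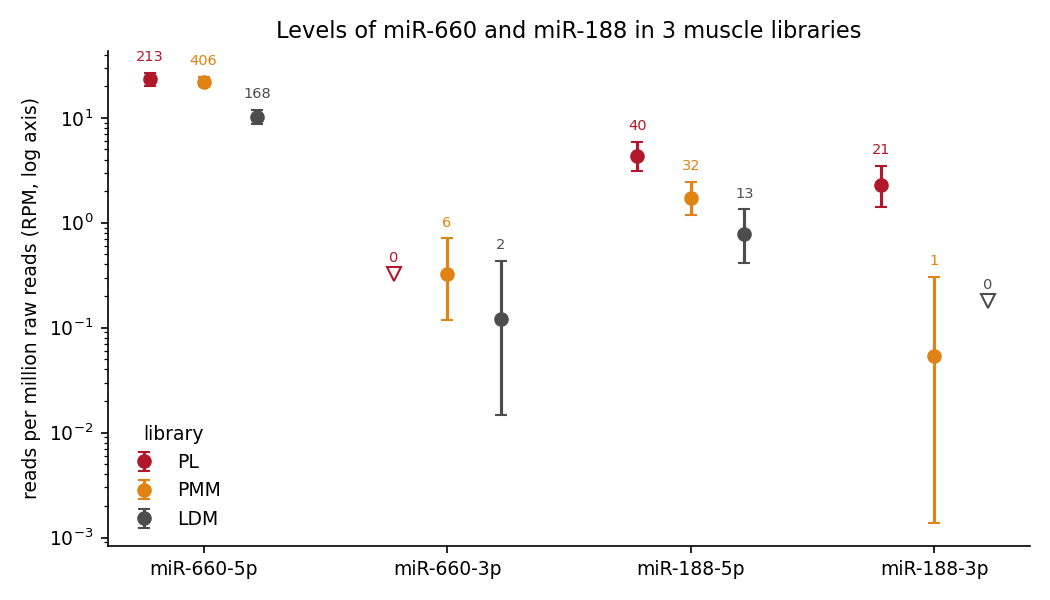
Levels of the 4 miRNAs (x axis) in RPM on a log axis, with 1 point per library, its exact 95% Poisson interval as a bar and its reads as a number. Open triangles stand at the level of 3 reads where a library has 0 reads. miR-660-5p lies between 10.1 and 23.2 RPM in all libraries, and miR-188-3p is at 2.29 RPM in PL with 1 read in PMM and 0 in LDM.

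Folds that involve PL depend on the library total. Of the conserved reads in PL, miR-26b-5p alone took 90.5%, against 62.7% in PMM and 62.9% in LDM. With the summed conserved reads as total, every fold of PL over PMM is divided by 2.92 and every fold of PL over LDM by 3.43. The log2 fold of miR-660-5p then was -1.46 for PL over PMM and -0.58 for PL over LDM, in place of 0.079 and 1.20. The first was called as lower in PL (adjusted p at most 4.7e-33 in the exact and both other tests), and the second was not called (up to 0.0162). With the trimmed mean of M values (TMM) it was -0.24 and 0.38, and neither was called. For miR-188-5p in PL over LDM the log2 fold was 2.48 with raw reads, 1.66 with TMM and 0.70 with the summed reads, and it was not called with TMM or the summed reads. For PL over PMM it was 1.33 with raw reads and -0.21 with the summed reads, and was not called with either. miR-188-3p was higher in PL than in PMM and LDM under each total, though not called with the summed reads (adjusted p up to 0.0573 and 0.0930 over the exact and both other tests).

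**Figure D2:**
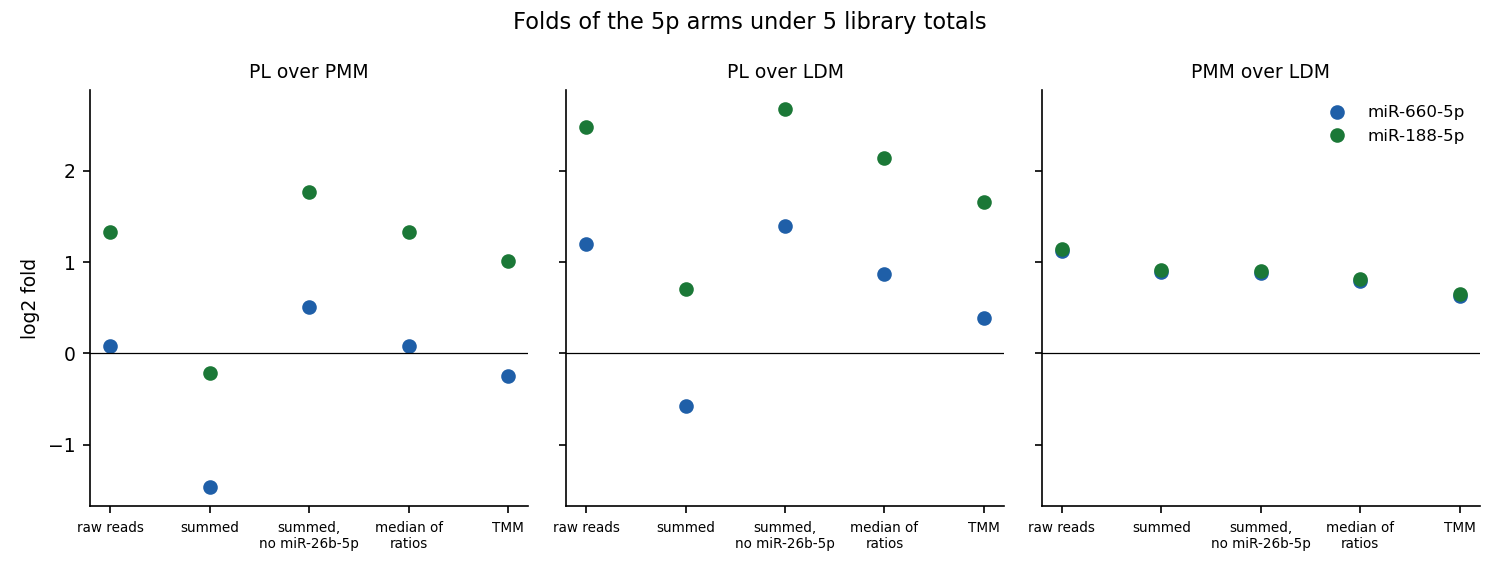
Log2 fold (y axis) of miR-660-5p and miR-188-5p for each pair of libraries under 5 library totals (x axis), with 1 point per miRNA and total. In PMM over LDM both points lie together between 0.63 and 1.15 under every total. In both panels with PL, miR-188-5p lies above miR-660-5p, and the points of both shift together with the total, from 1.39 to -0.58 for miR-660-5p in PL over LDM.

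Whether the neighbors varied together was tested on the ratio of their reads within a library, which does not depend on any library total. With 3 libraries no correlation was computed. miR-188-5p took 15.8% of the reads of both 5p arms in PL (40 of 253, Clopper-Pearson interval 11.5% to 20.9%), 7.31% of those in PMM (32 of 438, 5.05% to 10.16%) and 7.18% of those in LDM (13 of 181, 3.88% to 12.0%). PMM and LDM thus have nearly the same share, and PL stands above both. There were 5.33 reads of miR-660-5p per read of miR-188-5p in PL, 12.7 in PMM and 12.9 in LDM.

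Between PMM and LDM the ratio of the 5p arms differed by a factor of 1.02 (conditional odds ratio, exact interval 0.505 to 2.17), so a change of about 2-fold either way is within the interval. Fisher's exact test with Benjamini-Hochberg adjustment over all 5778 pairs of miRNAs gave p = 1, and 9.26% of pairs were called between these libraries at an adjusted p under 0.05. Between PL and PMM the ratio differed 2.38-fold (1.41 to 4.04, adjusted p = 0.00423 in the same exact test), where 23.7% of all pairs were called. Between PL and LDM it differed 2.42-fold (1.22 to 5.10, adjusted exact p = 0.0334), against a background of 23.4%. Over the 3 libraries together the profiles of the 5p arms were unequal (exact Fisher-Freeman-Halton test, adjusted p = 0.00407). This held for 38.0% of all pairs of miRNAs. It held for 67.5% of pairs when only miRNAs with at least 10 reads were paired, a minimum that both 5p arms reach.

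Neighbors elsewhere in the table were tested in the same way. Of the 50 pairs of miRNAs from different precursors within 10 kb on 1 strand, 60.0% were unequal over the 3 libraries. All 4 pairs between miR-188 and miR-660 were among these, and 26 of the 46 others, of which 40 pairs are from a single window of chromosome 6. Among the rest, miR-301a-3p and miR-454-3p on chromosome 11, whose starts are 8955 nt apart, were unequal with an adjusted p of 0.0368. The pair miR-200c-3p and miR-141-3p on chromosome 5 was just under the limit at 0.0499. The 3 pairs of miR-367-3p with miR-302 miRNAs on chromosome 8 were not called, nor was miR-301a-3p with miR-454-5p. Unequal profiles were thus also found for other neighbors, but 24 of these 26 pairs are from the window of chromosome 6. The few pairs outside it are too few to say how common unequal neighbors are. Of the 4 pairs, miR-660-3p with miR-188-5p (adjusted p = 0.0423) rests on 8 reads of miR-660-3p and was not called under 4 alternatives, the chi-squared test (0.0796), no minimum of reads (0.0714), thinning of each library to the depth of PL (0.120) and Bonferroni adjustment (1).

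The arms of miR-188 changed against each other while those of miR-660 did not pass the test. The 3p arm took 34.4% of the miR-188 reads in PL (21 of 61, Clopper-Pearson interval 22.7% to 47.7%), 3.03% in PMM (1 of 33, 0.0767% to 15.8%) and 0% in LDM (0 of 13, up to 24.7%). The intervals of PL and PMM do not overlap, while that of LDM, with 13 reads, is too wide to be set apart from PL. The difference between PL and PMM was called (Fisher's exact test, Benjamini-Hochberg adjusted p = 0.00192 over 98 tests of arms), and 23.5% of these tests were called. This share is a rough background only. The tests include miR-5105, whose listed entries overlap, and some with 0 reads of both arms in a library, which could not be called. For miR-188, the difference between PL and LDM had an adjusted p of 0.0569 in Fisher's exact test. It was 0.0430 when only the 74 tests with at least 30 reads were made.

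For miR-660 the 3p arm took 0% in PL (0 of 213, up to 1.72%), 1.46% in PMM (6 of 412, 0.536% to 3.14%) and 1.18% in LDM (2 of 170, 0.143% to 4.19%). All 3 intervals overlap, and none of the differences was called (adjusted p of Fisher's exact test = 0.252 for PL against PMM, 0.385 for PL against LDM and 1 for PMM against LDM). The 3p arm of miR-660 was thus under 5% of its reads in every library. In PL, that of miR-188 was over 20% even at the lower limit of its interval. Between the 3p arms themselves, miR-188-3p with miR-660-3p, the reads over the 3 libraries were unequal (exact Fisher-Freeman-Halton test, adjusted p = 1.1e-05), with 21, 1 and 0 reads in PL, PMM and LDM against 0, 6 and 2.

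**Figure D3:**
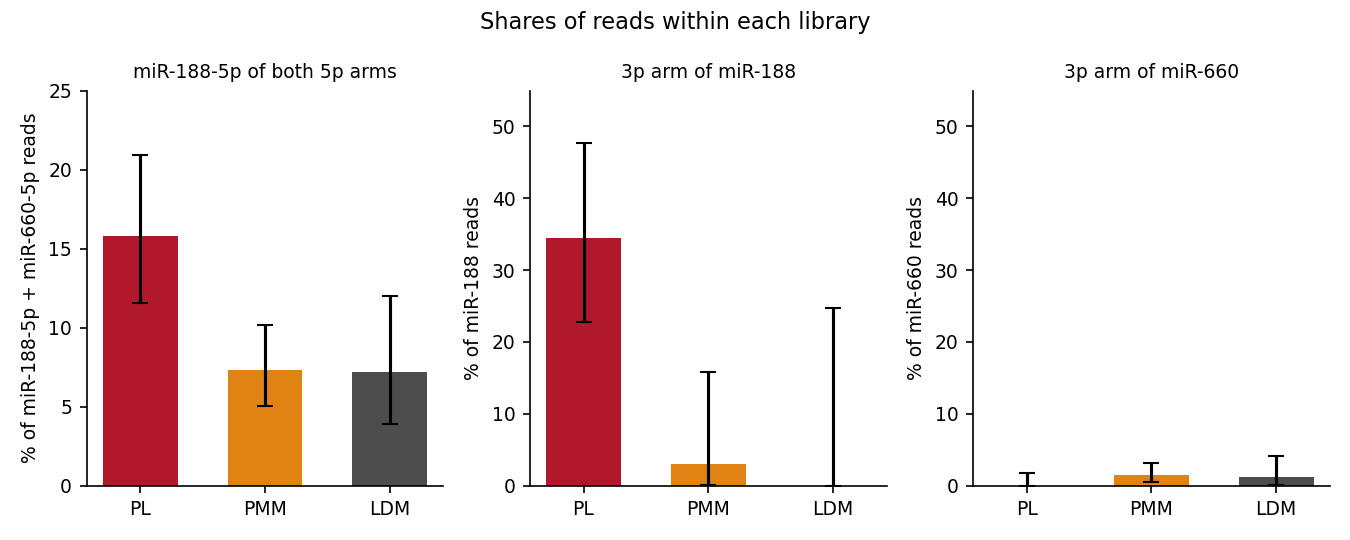
Shares of reads within each library in percent, with exact 95% Clopper-Pearson intervals as error bars, for miR-188-5p among the reads of both 5p arms (left), the 3p arm of miR-188 (middle) and the 3p arm of miR-660 (right). PL is at 15.8% against 7.31% and 7.18% on the left and at 34.4% against 3.03% and 0% in the middle, while all libraries are under 1.5% on the right.

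Together, the members took 274 reads of PL (29.9 RPM), 445 of PMM (24.1 RPM) and 183 of LDM (11.01 RPM). Their share of all conserved reads was lowest in PL, with 1.16% against 2.73% for PMM and 1.47% for LDM. Without the reads of miR-26b-5p it was highest in PL, with 12.3% against 7.32% and 3.95%. Most listed reads from chromosome X were theirs, namely 93.2% for PL (exact interval 89.7% to 95.8%), 90.4% for PMM (87.5% to 92.9%) and 82.8% for LDM (77.2% to 87.5%). The 6 other entries of chromosome X gave little signal, except miR-223-3p, a miRNA of myeloid blood cells. PL had 14 reads of this miRNA (1.53 RPM), PMM had 41 (2.22 RPM) and LDM had 36 (2.17 RPM). Its lowest value was in PL, where those of miR-188 were highest, but neither difference of PL was called. The ratio was 0.687 for PL over PMM (0.346 to 1.29) and 0.705 for PL over LDM (0.351 to 1.34). miR-223-5p, miR-384-5p, miR-384-3p, miR-1298-5p and miR-1949-3p reached no more than 3 reads in a library.

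**Figure D4:**
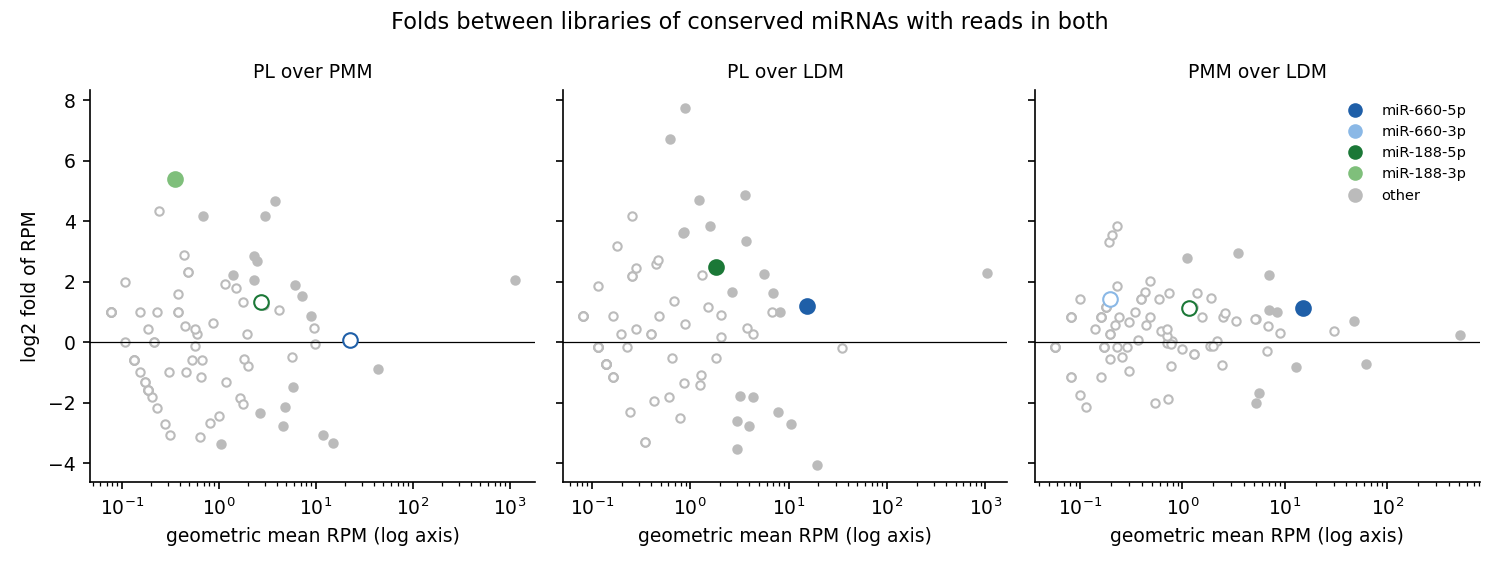
Log2 fold of RPM (y axis) against the geometric mean RPM (x axis, log) for the miRNAs with reads in both libraries of a pair, 83 in PL over PMM, 77 in PL over LDM and 91 in PMM over LDM. Each point is 1 miRNA, filled where the difference was called. miR-660-5p is near 0 in PL over PMM and at 1.20 and 1.12 in the other panels, and miR-188-3p is at 5.40 in PL over PMM and has no point in the other panels because LDM had 0 reads.

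Of the 45 other unique miRNAs with at least 30 reads, miR-409-3p, of an imprinted cluster in mammals, had the profile most like that of miR-660-5p. Its level was 9.60 RPM in PL against 10.02 in PMM and 4.81 in LDM, and the distance between the centered log2 profiles over the 3 libraries was 0.148. miR-590-3p (0.429) and miR-5105-5p (0.554) followed, and miR-188-5p was at place 8 with a distance of 1.02. Nearest to miR-188-5p were miR-5105-3p (0.294), miR-454-3p (0.506) and miR-5105-5p (0.586), with miR-660-5p at place 7. As listed, miR-5105-5p ends with every base of miR-5105-3p, so these entries overlap and cannot be opposite arms of a hairpin. Both are from the window of chromosome 6, and their places are not separate observations. The level of miR-5105-3p was 12.3 RPM in PL against 4.23 in PMM and 2.59 in LDM. That of miR-454-3p was 2.84 RPM against 0.813 and 0.602, in the same order. All 3, miR-188-5p included, were highest in PL with raw reads as total, and none of them was called between PMM and LDM. Each profile has 3 values from the same libraries, so likeness among them is a description only, and the places depend on the reads behind each miRNA.

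Markers of tissue and of other cells moved between the libraries as well. Of 7 miRNAs listed for muscle, miR-1 and miR-208a were in the table, with a summed level of 18.8 RPM in PL against 51.1 in PMM and 81.4 in LDM. These 2 went in opposite directions. The conserved entry of miR-1-3p, a miRNA found in all striated muscle, was at 4.80 RPM in PL against 48.3 in PMM and 79.3 in LDM. The paper counts miR-1 among the abundant known porcine miRNAs enriched in LDM. Those reads were not analysed here, so the levels of this entry are not the whole level of miR-1. miR-208a-3p, encoded in an intron of a myosin heavy chain gene of heart muscle, was at 12.9 RPM in PL against 0.704 in PMM and 0.0602 in LDM, and so had its highest level in PL, as both arms of miR-188 did. Of 5 miRNAs listed for blood and immune cells, only miR-223 was in the table, with both arms summing to 1.64 RPM in PL against 2.28 in PMM and 2.23 in LDM. miR-126, listed for endothelium, was not in the table. The epithelial list (3 of 5 in the table) was at 0.981 RPM in PL against 4.23 in PMM and 1.93 in LDM, and the neural list (2 of 4) had 0 reads in PL against 10.24 RPM in PMM and 1.26 in LDM. The summed levels of all 4 lists were lowest in PL, where those of miR-188 were highest. Each sum covers only the members in the table, and most of the muscle sum in PMM and LDM is miR-1-3p. Among the listed markers not in the table, the paper reports miR-208b, miR-499 and miR-126 as enriched in PL. It reports miR-133a as differing little between the muscles. The epithelial and neural lists were higher in PMM than in LDM, as miR-660-5p was, and their part in its difference was not tested. These sums rest mostly on miR-219-3p (9.80 RPM in PMM against 1.26 in LDM) and miR-200c-3p (2.44 against 0.782). miR-200b-3p was nearly equal in PMM and LDM (0.813 against 0.782). miR-141-3p was at 0.975 RPM in PMM, 0.436 in PL and 0.361 in LDM, and so not lowest in PL.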

How the data were processed

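The authors removed reads by adapter, length and quality, matched the rest to the precursors of miRBase 19.0 with BLAST and placed these on the pig genome (Sscrofa10.2, headed Sscrofa10 in the table). The BLAST version is not given in the sources used here. The deposited values are whole read counts per listed miRNA and library, with no normalization, and a mark in 118 of 456 cells was read as 0. Identical sequences were merged. Raw reads stated in the paper served as library totals, since the table holds a part of each library.

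Library differences were tested by 3 two-sided tests (Audic-Claverie, chi-squared and Fisher's exact test) over 108 miRNAs with Bonferroni adjustment, the tests and limit of the study. Unlike there, totals were raw instead of mappable reads, and conserved miRNAs alone were tested. Ratios of 2 miRNAs and of arms were tested by exact tests (two-sided) with Benjamini-Hochberg adjustment over all pairs of miRNAs, or over all arms with at least 10 reads. Named beside the members were other entries of chromosome X, the CLCN5 cluster, marker lists and the 3 nearest profiles (0.5 reads added). Other miRNAs were named to account for counts, among them the pairs of neighbors, which were chosen after their values were seen. Members and lists were chosen with earlier results of these data known. Alternatives were other library totals, adjustments, minimums of reads, unmerged rows, thinned libraries and other distances. The tests were checked on simulated counts that held counting error only, so the spread between animals or sequencing runs was not covered. Versions were scipy 1.17.1, numpy 2.4.6, matplotlib 3.10.9 and Python 3.11.15.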

Additional observations from a re-analysis of the deposited data

How the results depend on the processing

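No paired analysis was possible because a muscle had 1 library only, and for this reason no library could be left out. The numbers of miRNAs called between libraries stayed within 1.5 times under the 9 alternatives, as did the calls of miR-660-5p between PMM and LDM. Taking the summed conserved reads for the total, most of which are miR-26b-5p, the log2 fold of miR-660-5p turned to -1.46 in PL over PMM, called as lower in PL, and to -0.58 in PL over LDM, no longer called. Calls were also lost for miR-188-5p in PL over LDM (0.70), miR-188-3p in PL over PMM (3.86) and miR-188-3p in PL over LDM (1.89, with 3 reads for LDM). With TMM, calls were lost in PL over LDM for miR-660-5p (0.38) and miR-188-5p (1.66), and the cause was not tested. The log2 fold of miR-188-5p in PL over PMM became called with the summed reads without miR-26b-5p (1.77) and with Benjamini-Hochberg adjustment (1.33, unchanged in size), which is less strict by construction. The share of pairs of miRNAs with unequal reads (38.0%) was 16.2% with Bonferroni adjustment, 19.9% with no minimum of reads and 67.5% with a minimum of 10 reads. Of these, the minimums change which miRNAs are paired. The unequal profile of miR-660-5p and miR-188-5p was not called with Bonferroni adjustment over all pairs (exact p = 1), and was called with the 5 other alternatives, with adjusted p (exact except for the chi-squared test) between 0.00203 and 0.0110. The pair of miR-660-3p and miR-188-5p was lost under 4 alternatives. The pair of the miR-188 arms was also lost with Bonferroni adjustment (exact p = 0.704). The arm ratio of miR-188 between PL and LDM became called with at least 30 reads (exact p = 0.0430). Of the 3 nearest profiles, 2 or 3 were kept under the alternatives. Depth limits miR-660-3p in all libraries and miR-188-3p in PMM and LDM, with at most 6 reads each.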
